A study of Fukomys damarensis and Heterocephalus glaber and Cavia porcellus with 28 samples.

Results

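Heart and liver of the laboratory mouse were compared across all measured genes, using the 3 mouse heart and the 2 mouse liver libraries of a series of 28 libraries. The members were chosen by tissue and species as the labels give them, and no measured value entered the choice. Of 13928 genes measured, 10750 had a mean of the 2 tissue means of at least 1 RPM (recovered reads, scaled between libraries, per 1000000 reads) and were tested, and 3178 were not. The series sequenced ribosomal-RNA-depleted total RNA of both organs in mice, guinea pigs, Damaraland mole-rats and naked mole-rats. All mouse samples came from males aged 2 months, and the labels used here give no strain and no treatment. The 5 libraries came from 4 mice: heart 2 and liver 2 are from the same animal, and heart 1, heart 3 and liver 1 are each from another. The other species enter only at the end, for the size of the heart and liver difference: 3 hearts and 4 livers of male naked mole-rats aged 13 to 17 months, 5 hearts and 5 livers of Damaraland mole-rats aged 36 to 48 months (1 liver from a female), and 3 hearts and 3 livers of male guinea pigs aged 2.3 months. For 1 Damaraland mole-rat the labels conflict, giving 48 months for its heart and 36 months for its liver. Pieces of whole frozen organ were extracted, so every value is a mixture over the cell types of the organ. Fewer cells of a type and less RNA per cell cannot be told apart.

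The heart is a muscle that contracts without rest, and its cardiomyocytes hold a dense sarcomere lattice, a calcium store that is emptied and refilled at each beat, and many mitochondria that burn mainly fatty acids, ketone bodies and lactate. The liver is a gland, and its hepatocytes secrete most plasma proteins and lipoproteins, make glucose, ketone bodies, bile acids and urea for the rest of the body, and clear drugs and hormones. Many enzymes of energy metabolism exist in a muscle form and a liver form coded by separate genes, so the organs can be compared enzyme by enzyme.

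Total recovered reads were 26985779, 23485705 and 24690868 in hearts 1 to 3, and 11220505 and 18366998 in livers 1 and 2, so the livers are the shallower libraries. Spearman correlations of the gene levels were 0.986 to 0.989 between hearts, 0.976 between the livers and 0.509 to 0.517 between a heart and a liver. Between the livers 6.33% of the tested genes differed by over 2-fold, and between pairs of hearts 2.32% to 3.21% did. Reads were concentrated in fewer genes in heart: the 10 genes with most reads took 31.2% to 34.4% of reads in heart and 14.5% to 15.7% in liver. Mitochondrially encoded genes took 24.1%, 22.4% and 25.6% of heart reads and 5.74% and 2.88% of liver reads. Levels below are RPM after division by a median-ratio size factor, which does not correct for gene length. They are therefore compared for 1 gene or 1 list between organs, and not between genes.

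Genes were called in both directions. With limma and Benjamini-Hochberg adjustment, 5212 genes (48.5%) passed both an adjusted p under 0.05 and a 2-fold difference, and are referred to as called: 2799 (26.0%) higher in heart and 2413 (22.4%) higher in liver. All 5212 called genes had every library of the higher organ above every library of the other. They were selected on that same difference, so the separation adds no further support. The remaining 5538 genes were not called. At 16-fold or more, 490 genes (4.56%) were called heart-dominant and 529 (4.92%) liver-dominant, and differences over 256-fold numbered 69 towards heart and 145 towards liver. For 3206 genes (29.8%) the 95% confidence interval of the difference lay within 2-fold either way. Scaling by total reads, in which the mitochondrially encoded reads of the heart weigh fully, shifted the median gene by -0.22 (log2) and gave 2391 genes higher in heart and 2860 higher in liver. The p-values measure the spread between these few animals.

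**Figure D1:**
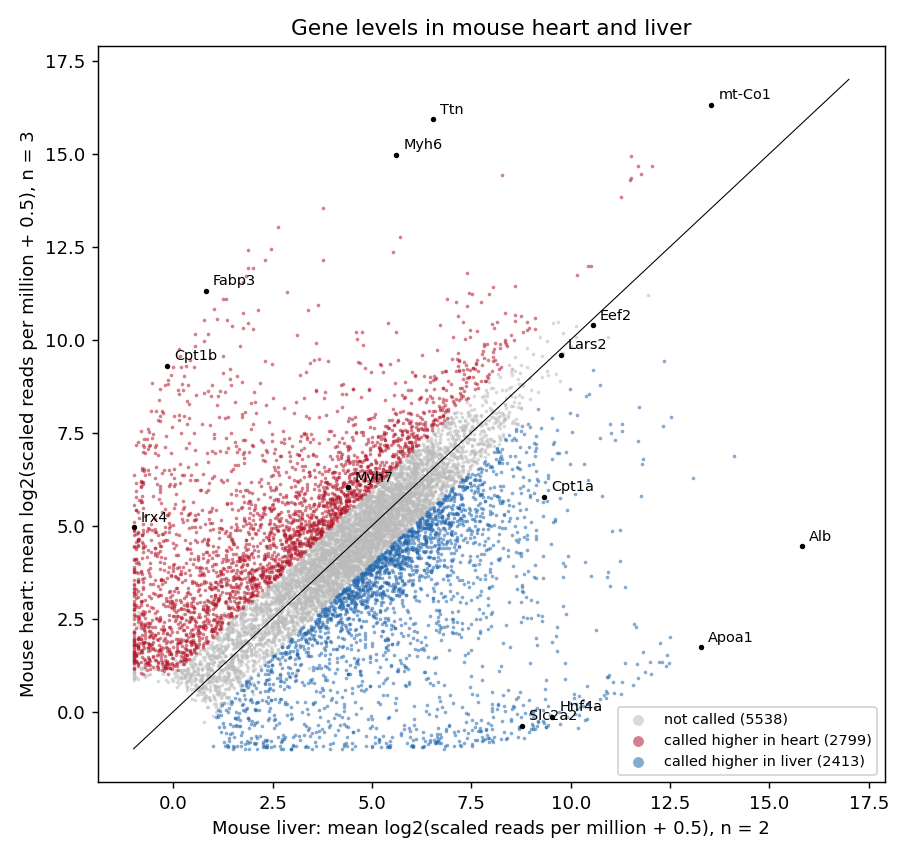
Mean level of each tested gene in the 2 mouse livers (x axis) and the 3 mouse hearts (y axis), both as log2(RPM + 0.5), with called genes in colour and the line of equal level in black. The 2799 genes called higher in heart lie above the line and the 2413 called higher in liver below it, with Alb and Apoa1 at the liver end, and Ttn and Myh6 at the heart end.

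The labels matched the defining markers of both organs. All 12 tested cardiomyocyte markers were called higher in heart, with a median difference of 9.80 (log2) against 0.06 over all genes tested, and all 12 tested hepatocyte markers were called higher in liver, with a median of -10.70. The summed level of the cardiomyocyte markers was 121400, 133600 and 145400 in the hearts against 260 and 157 in the livers. The summed level of the hepatocyte markers was 102400 and 93940 in the livers, and 23.4, 81.2 and 27.2 in the hearts. Heart 2 was the highest of the hearts for the liver markers, and it is the heart of the mouse whose liver is liver 2. Over the 72 liver-dominant genes with at least 1000 RPM in liver, the median level in hearts 1, 2 and 3 was 0.0336%, 0.114% and 0.0563% of the liver level. Over the 42 heart-dominant genes of that abundance in heart, the median in livers 1 and 2 was 0.200% and 0.131% of the heart level. The part that carried-over RNA has in such traces was not tested.

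The contractile machinery was higher in heart. All 23 tested sarcomere genes were called higher in heart, 21 of them heart-dominant, with a median difference of 9.28. Myl2, the regulatory light chain of ventricular myosin, was at 5167, 5465 and 5841 in the hearts and at 4.01 and 2.50 in the livers, a difference of 10.54 (SE 0.19, adjusted p = 1.11e-07), the largest on the heart side among genes of at least 50 RPM. The essential light chain Myl3, the thin filament regulators Tnnt2 and Tnni3, the cardiac actin Actc1, the thick filament protein Mybpc3 and the M-band protein Myom1 differed by 9.78 to 9.96. Myh6, the fast cardiac myosin heavy chain of the adult mouse, was at 30180, 32390 and 34390 in heart and at 57.8 and 40.3 in liver (difference 9.37, SE 0.20, adjusted p = 1.34e-07), and it took 2.94% to 3.11% of all heart reads. The giant spring protein Ttn was at 54850, 62380 and 72080 against 131 and 65.3. Every heart was thus far above every liver for these genes.

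Myh7, the slow cardiac myosin heavy chain, differed far less. It was at 44.0, 72.6 and 85.8 in the hearts and 36.6 and 11.3 in the livers, a difference of 1.65 (SE 0.50, adjusted p = 0.0221). The organs did not overlap, but heart 1 and liver 1 were close. The call was lost without heart 2 (adjusted p = 0.0594), without heart 3 (0.0773) and without liver 2 (0.108). Myh6 and Myh7 are near-identical over long stretches, and how reads were split between them was not tested. Myl4, the light chain of atrial and embryonic muscle, was called at a difference of 1.20 (SE 0.28) from levels of 1.94 to 2.84 in heart, and missed the call after quantile normalisation (adjusted p = 0.14).

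Of 13 tested calcium handling genes 12 were called higher in heart, with a median difference of 7.31. The remaining gene was not called, and 1 gene of the list was called higher in liver by total reads and without liver 1. The release channel Ryr2 was at 3738, 3870 and 4119 in heart and 3.29 and 3.05 in liver (difference 10.06, SE 0.11, adjusted p = 7.48e-08). Phospholamban (Pln), which restrains the calcium pump, differed by 9.82, the store protein Casq2 by 9.59, and Jph2, which ties the store to the surface membrane, by 9.28. The pump itself, Atp2a2, which other cells also use to fill the endoplasmic reticulum, was at 21390, 21220 and 23160 in heart but also at 294.5 and 325 in liver, a smaller difference of 6.14 (SE 0.17).

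All 17 tested ion channel and action potential genes were called higher in heart, with a median of 6.51. The potassium channel subunit Kcnj11, which opens when ATP falls, differed by 8.07, and Kcnip2, a partner of the transient outward channel, by 7.31 with unequal livers (1.68 and 0.10). Of 12 tested intercalated disc genes, which join cardiomyocytes end to end, 9 were called higher in heart and none in liver. Nrap and Ctnna3 were nearly absent from liver (differences 9.61 and 6.86), whereas the desmosomal Dsp, also used by epithelia, was at 2199 to 2769 in heart and at 180 and 188 in liver. Of 12 adrenergic and muscarinic genes 10 were called higher in heart, among them the muscarinic receptor Chrm2 (8.14), the anchoring protein Akap6 (7.86), the adenylyl cyclase Adcy5 (4.80) and the beta-1 adrenoceptor Adrb1 (4.29).

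Among heart transcription factors and cofactors 15 of 15 tested were called higher in heart, with a median of 3.86. Nkx2-5, a homeodomain factor of the cardiac lineage, was at 71.1, 59.2 and 66.8 in heart and at 0 and 0.150 in liver (difference 6.86, SE 0.19). The T-box factor Tbx5 had 25.3, 25.0 and 28.4 in heart and no read in either liver, which makes it at least 284-fold higher, counted against a floor of 3 reads over the liver libraries. Irx4, a ventricular factor, had 29.2 to 31.3 in heart and no read in liver, at least 331-fold higher. Ankrd1, a stretch-responsive cofactor, was at 408.5, 719 and 771.5 in heart (difference 8.75, SE 0.28), and the muscle methyltransferase Smyd1 differed by 7.52.

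The hormone side of the heart was less uniform. Nppa, which codes for atrial natriuretic peptide, was at 25.1, 194 and 73.0 in hearts 1, 2 and 3, and at 0.0802 and 0.050 in the livers. Nppa was among the 5 genes of at least 50 RPM with the widest range over the hearts, yet all hearts stayed above the livers (difference 6.98, SE 0.75, adjusted p = 0.000164). Corin, the protease that activates its precursor, was more even at 302.5, 247 and 261 (difference 8.37), and Furin, a general precursor protease, was called higher in liver (-1.20). Over the 6 measured atrial markers the summed level was 37.3, 206 and 82.4 in the hearts, most of it Nppa, and 49.15 and 52.3 in the livers, above heart 1. The tested atrial markers went both ways: Nppa and Myl4 were called higher in heart, and Bmp10 and Nr2f2 higher in liver. Bmp10, a growth factor of the right atrium, is also in the list of hepatic stellate cell markers. It was at 0, 0 and 0.0458 in heart and 4.33 and 5.65 in liver (difference -3.405). Nr2f2, a nuclear receptor of atria and veins, differed by -2.55. Over the 5 measured ventricular markers the summed level was 11160, 12100 and 12160 in the hearts. How much atrium each piece of heart held was not tested.

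**Figure D2:**
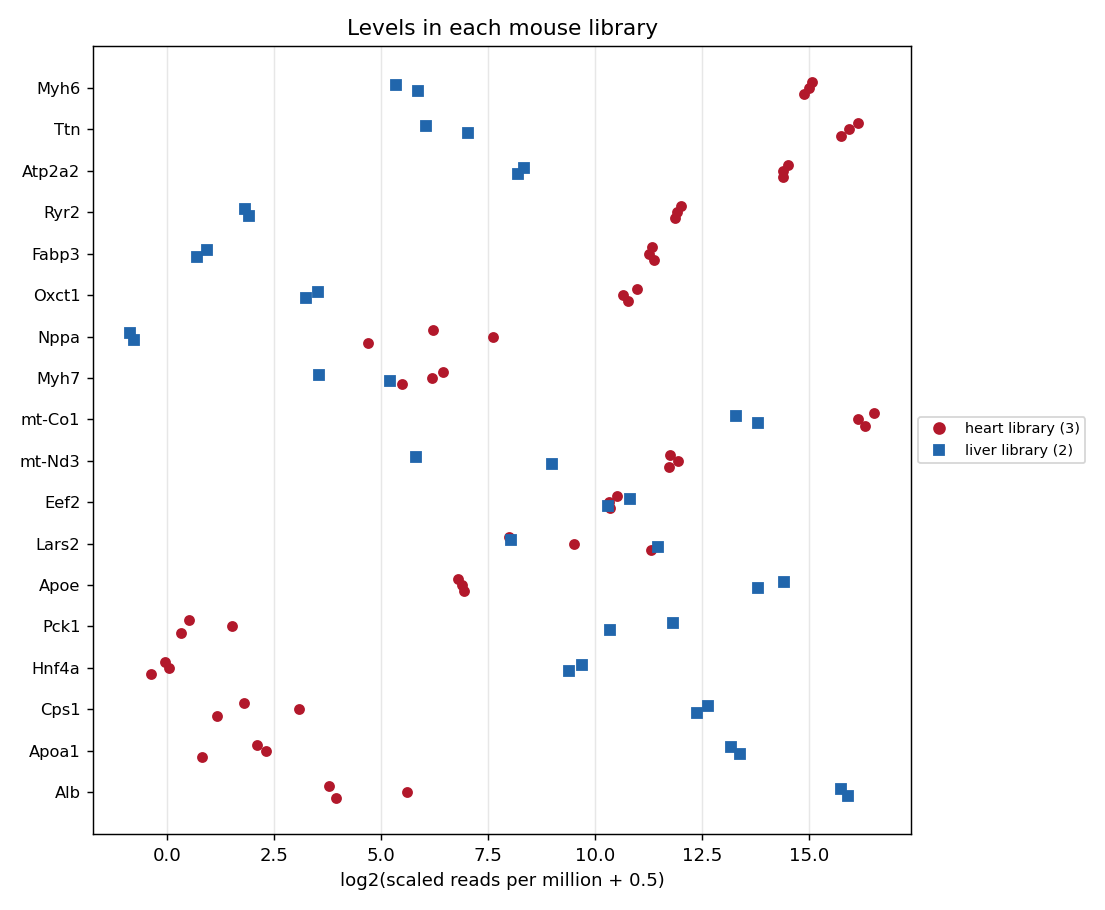
Level of 18 genes in each mouse library, as log2(RPM + 0.5), with hearts as red circles and livers as blue squares. Myh6, Ttn, Atp2a2 and Ryr2 and the liver genes Hnf4a, Cps1, Apoa1 and Alb show hearts and livers far apart, Nppa spreads from 25.1 to 194 RPM over the hearts, and Lars2 spreads within both organs.

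Secreted proteins were on the liver side. All 14 tested plasma carrier proteins were called higher in liver and all were liver-dominant, with a median difference of -10.41. Albumin (Alb) was at 60780 and 54400 in the livers, 6.76% and 5.92% of all their reads, and at 14.8, 48.2 and 13.3 in the hearts (difference -11.37, SE 0.52, adjusted p = 2.49e-06). Transthyretin (Ttr), which carries thyroid hormone, was at 6867 and 3669 in liver, the vitamin D carrier Gc at 6413 and 4661, and the haem carrier Hpx at 4931 and 3368. No liver was near any heart for these genes.

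Of the blood clotting and fibrinolysis genes 18 of 18 were called higher in liver, with a median of -9.28. The fibrinogen chains Fga, Fgb and Fgg differed by -10.89, -11.03 and -10.79, prothrombin (F2) by -10.79 and plasminogen (Plg) by -10.86. Among 16 tested complement genes 14 were called higher in liver. Hc, the mouse gene for component C5, was at 1532 and 1232 in liver against 0.228, 1.47 and 0.595 in heart (difference -10.21), and C3 was at 7820 and 9727 against 109, 83.1 and 50.1 (difference -6.82). The exceptions were the C1q chains C1qb and C1qc, which macrophages make, at 0.20 and 0.50, with intervals within 2-fold.

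Lipoprotein genes were higher in liver in 18 of 18 cases. Apoa1, the main protein of high-density lipoprotein, had the largest difference of the comparison among genes of at least 50 RPM: 10670 and 9208 in the livers against 1.25, 4.44 and 3.76 in the hearts, a difference of -11.54 (SE 0.42, adjusted p = 8.87e-07). Apoa2, Apoc3 and Apoa5 followed at -11.19, -10.51 and -10.09. Apoe, which many tissues make, was at 14170 and 21850 in liver but also at 121, 119 and 111 in heart, a difference of -7.23. The machinery that folds and exports such proteins was higher too, by less: 24 of 31 tested genes of the secretory pathway were called higher in liver and none in heart, with a median of -1.59, led by the disulphide isomerases Pdia4 (-3.39) and P4hb (-3.38) and the stress factor Xbp1 (-3.04).

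Nitrogen disposal was higher in liver for most of its genes. Cps1, the first enzyme of the urea cycle, was at 5285 and 6366 in liver and at 1.75, 7.91 and 2.98 in heart (difference -10.49, SE 0.50), and Arg1, Otc and Ass1 differed by -10.18, -9.55 and -9.22. In all, 10 of 12 tested urea cycle and ammonia genes were called higher in liver, and 1 was called higher in heart. All 28 amino acid breakdown genes were called higher in liver, with a median of -8.45, among them Tdo2, which opens tryptophan (-10.48), Hpd of tyrosine breakdown (-10.19) and Bhmt, which remethylates homocysteine (-10.23).

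Bile acid and drug metabolism gave 13 of 13 and 13 of 14 genes called higher in liver. The bile acid enzyme Slc27a5 differed by -10.63, the bile salt export pump Abcb11 by -9.75 and Baat, which conjugates bile acids, by -8.76. Of the cytochromes P450, Cyp2e1 was at 7359 and 4362 in liver and 0.456, 5.06 and 2.34 in heart (-11.16, SE 0.68), Cyp1a2 differed by -10.61 with close replicates (SE 0.15), and Cyp2f2 by -10.57. Iron handling was mixed: Tmprss6, which restrains the iron hormone hepcidin, differed by -9.62 and the ferritin light chain Ftl1 by -3.56, while the ferritin heavy chain Fth1 stayed within 2-fold (-0.17, 95% interval -0.49 to 0.15) and the transferrin receptor Tfrc was called higher in heart (1.84).

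Hepatocyte transcription factors were called higher in liver in 17 of 18 tested cases, with a median of -5.70. Hnf4a, the nuclear receptor at the head of this network, was at 669 and 824 in liver and at 0.266, 0.533 and 0.458 in heart (difference -9.67, SE 0.19, adjusted p = 1.26e-07). Creb3l3, a membrane-bound factor of the hepatic fasting response, differed by -8.74, the cut-homeodomain factor Onecut2 by -7.80 and the bile acid receptor Nr1h4 by -7.34. Endocrine genes of the growth hormone and insulin axis went both ways: Igf1, Igfbp2 and the glucagon receptor Gcgr were higher in liver (-5.79, -9.11 and -7.93), and Igf2 was higher in heart, at 62.7, 34.2 and 28.9 against 2.25 and 0.350 (difference 4.71, SE 0.53).

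**Figure D3:**
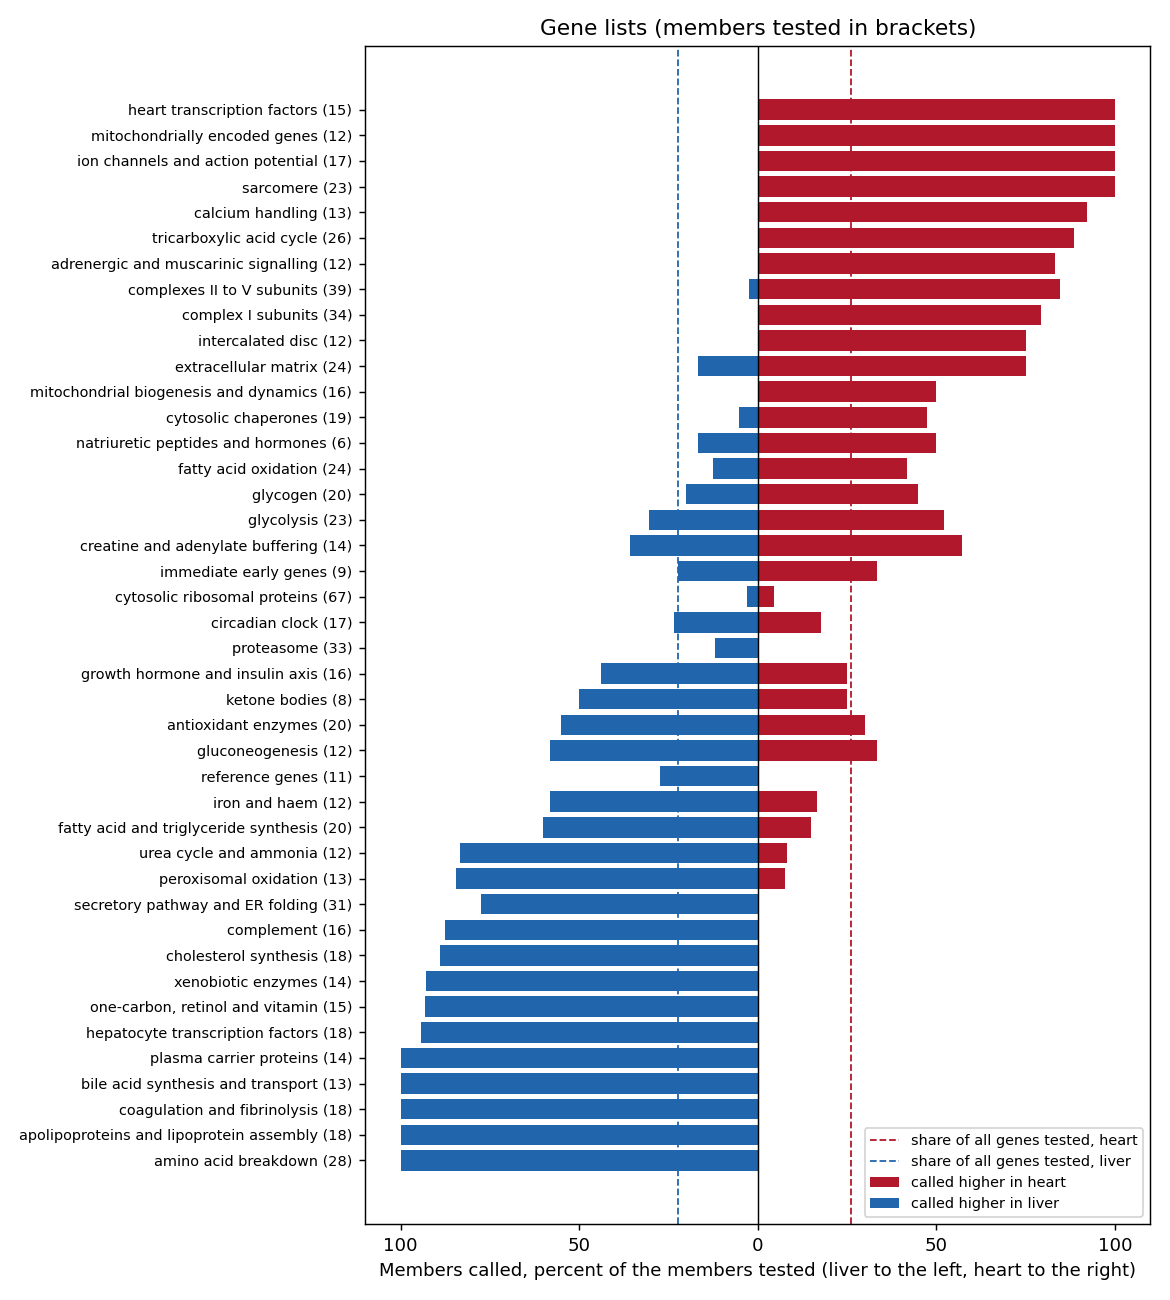
Share of the tested members of each list called higher in heart (red, to the right) or in liver (blue, to the left), in percent, with the shares over all 10750 tested genes as dashed lines (26.0% and 22.4%). Sarcomere, ion channel, heart transcription factor and mitochondrially encoded genes reach 100% towards heart, while plasma carriers, coagulation, apolipoproteins, bile acid and amino acid breakdown genes reach 100% towards liver, and ribosomal proteins and the proteasome lie under both background shares.

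Enzymes of energy metabolism differed by isoform. Of 34 pairs of a muscle form and a liver form of an enzyme, transporter or pathway partner, 30 had both genes tested. The muscle form was called higher in heart in 27 of these, the liver form higher in liver in 19, and 17 pairs were reciprocal, with both called in opposite directions. In all 30 pairs the muscle form was relatively more abundant in heart than its partner. The pairs were chosen for known muscle and liver expression, so this direction describes these mice and is no independent evidence.

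Glucose uptake was one such exchange. Slc2a4, the insulin-sensitive transporter GLUT4, was at 361, 376 and 370 in heart and 0.401 and 0.851 in liver (difference 8.39, SE 0.19), and Slc2a2, the liver transporter GLUT2, at 0.114, 0.400 and 0.321 in heart and 431 and 439 in liver (-9.15, SE 0.21). Hexokinase Hk2 differed by 7.12. Pyruvate kinase Pkm and Pklr differed by 5.60 and -8.49. Glycogen enzymes followed the same division: phosphorylase Pygm and Pygl at 8.90 and -6.96, synthase Gys1 and Gys2 at 5.59 and -8.40, and the phosphatase targeting subunits Ppp1r3a and Ppp1r3b at 8.52 and -3.15.

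Some pairs did not exchange. Lactate dehydrogenase Ldhb, the heart form, was at 1233, 1163 and 1370 in heart and 4.25 and 2.90 in liver (8.28, SE 0.17), but Ldha stayed within 2-fold, at 533, 574 and 526 against 723 and 862 (-0.54, 95% interval -0.86 to -0.21). In 3 pairs the gene taken as the liver form was itself called higher in heart, among them phosphofructokinase Pfkl (1.30) and cytochrome oxidase subunit Cox7a2 (2.01). The AMP-activated kinase subunits Prkaa1 and Prkaa2 both lay within 2-fold, at 0.00 and 0.62. Acsl1, an acyl-CoA synthetase used by both organs, missed the call at -0.85, and Mat2a, the methionine adenosyltransferase of most tissues, was within 2-fold at -0.06 while its liver counterpart Mat1a differed by -9.98.

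**Figure D4:**
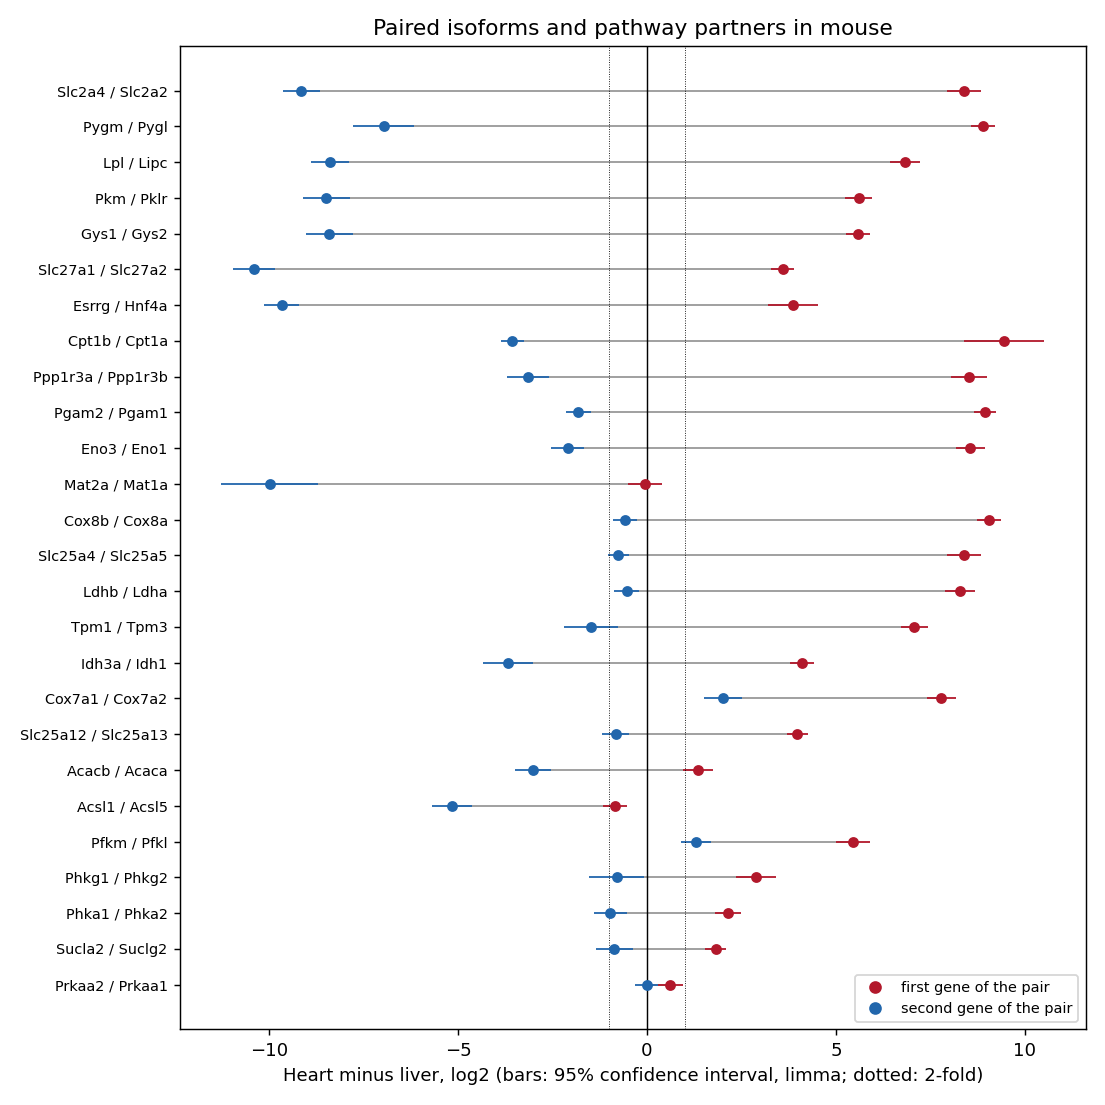
Heart minus liver difference (log2) of both genes of 26 of the 30 pairs in which both were tested, with 95% confidence intervals, the muscle form in red and the liver form in blue, ordered by the gap. The red point lies to the right of the blue one in all 26 pairs, and 14 of them straddle the dotted 2-fold lines with both genes called.

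Across glycolysis as a list, 12 of 23 tested genes (52.2%) were called higher in heart and 7 (30.4%) higher in liver. The shares over all genes tested were 26.0% and 22.4%. Aldoa, which the table lists under a pair of gene identifiers, was left out of the list and pair counts. Gluconeogenesis had 7 of 12 genes (58.3%) called higher in liver and 4 (33.3%) higher in heart. Pck1, which commits carbon to glucose, was at 1289 and 3607 in the livers and at 0.760, 2.35 and 0.916 in the hearts (-10.29, SE 0.50), and the glucose-releasing G6pc differed by -9.58. The muscle bisphosphatase Fbp2 went the other way (5.17).

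Of 24 tested fatty acid oxidation genes 10 (41.7%) were called higher in heart and 3 (12.5%) higher in liver, against 26.0% and 22.4% of all genes tested. Another 7 had intervals within 2-fold, a share near the 29.8% of all tested genes. Fabp3, the fatty acid carrier of muscle, was at 2642, 2427 and 2566 in heart and 1.12 and 1.40 in liver (10.50, SE 0.12), and the capillary lipase Lpl at 5195, 4870 and 5731 against 52.7 and 39.4 (6.83). Mitochondrial entry was exchanged between Cpt1b (543, 653 and 699 in heart, 0 and 1.10 in liver, difference 9.46, SE 0.45) and Cpt1a (51.5, 54.5 and 57.6 in heart, 588 and 713 in liver, difference -3.56, SE 0.13). The thiolase Acaa2, an enzyme of the beta-oxidation spiral named here as one of the most abundant genes within 2-fold, was at 812, 749 and 823 in heart and 1022 and 789 in liver (-0.18, 95% interval -0.55 to 0.19). Peroxisomal oxidation was on the liver side, with 11 of 13 genes called there, led by Slc27a2 (-10.39) and Acox2 (-7.48), and with Ech1 alone called higher in heart (1.99).

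Of 8 tested ketone body genes 2 (25%) were called higher in heart and 4 (50%) higher in liver. Over all genes tested the shares were 26.0% and 22.4%, so the heart share is near that of all genes. Oxct1, needed to use ketone bodies, was at 1738, 1611 and 2023 in heart and 8.90 and 11.1 in liver (7.42, SE 0.15). All hearts were far above both livers. Bdh1, which interconverts the main ketone bodies, was called higher in liver but varied within heart, at 18.0, 54.0 and 113 against 288 and 336 (-2.68, SE 0.67, adjusted p = 0.0102), and without liver 2 the adjusted p was 0.063. Lipid synthesis was a liver list: 12 of 20 fatty acid and triglyceride genes and 16 of 18 cholesterol genes were called higher in liver, among them Elovl6 (-7.14), Fads2 (-6.72) and Msmo1 (-4.78). The sterol enzymes Lss and Sqle differed between the livers, at 27.8 and 113 and at 29.8 and 83.3. On the heart side of these lists stood Pnpla2, a lipase that breaks down triglyceride (2.09), and Acacb, whose product regulates mitochondrial fatty acid entry (1.36).

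The terminal oxidation of fuels was higher in heart for most tested genes, by smaller factors. Of 26 tested tricarboxylic acid cycle and pyruvate dehydrogenase genes 23 were called higher in heart and none in liver, with a median of 1.78. Idh3a was at 628, 640 and 642 in heart and 40.9 and 32.9 in liver (4.10, SE 0.13), Idh2 differed by 3.69 and Ogdh by 3.36. The widest difference was that of Pdk4, a kinase that switches pyruvate dehydrogenase off: 1160, 1076 and 1105 in heart against 16.8 and 3.75 in liver (7.02, SE 0.52). Complex I had 27 of 34 subunits called higher in heart and none in liver (median 1.60), led by Ndufab1 (2.96), Ndufc1 (2.36), Ndufv2 (2.36) and Ndufb8 (2.30).

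In complexes II to V, 33 of 39 were called higher in heart with a median of 1.54, and some genes with tissue isoforms lay far from that median: Cox8b (9.06) and Cox7a1 (7.80) were nearly absent from liver, whereas Cox6a1 was called higher in liver, at 419.5 and 464.5 against 68.4, 74.8 and 58.2 (-2.72). All 12 measured mitochondrially encoded genes were called higher in heart, with a median of 2.82, and 11 were after quantile normalisation, where mt-Atp6 missed the call (1.58, adjusted p = 0.103). mt-Co1 was at 80880, 71990 and 93300 in heart and 14220 and 9971 in liver (2.78, SE 0.32). The livers disagreed for several of these genes: mt-Co3 was at 6486 and 1331, mt-Nd3 at 507 and 55.9, and mt-Atp8 at 662.5 and 69.4 in livers 1 and 2. Of 16 genes of mitochondrial biogenesis and dynamics 8 (50%) were called higher in heart and 8 had intervals within 2-fold. Those called included the regulators Ppargc1a (3.82) and Esrrg (3.86) and the fusion gene Mfn2 (2.61). High-energy phosphate buffering went both ways: of 14 tested genes 8 (57.1%) were called higher in heart and 5 (35.7%) higher in liver. Over all genes tested 26.0% were called higher in heart, 22.4% higher in liver and 29.8% had intervals within 2-fold. The creatine kinases Ckmt2 (9.82) and Ckm (8.42) and the adenylate kinase Ak1 (9.38) were on the heart side, and Gamt, which completes creatine synthesis (-4.82), was the furthest on the liver side.

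Most ribosomal protein and proteasome genes lay within 2-fold between the organs. Of 67 tested cytosolic ribosomal proteins 47 had intervals within 2-fold, as 29.8% of all tested genes did, 3 were called higher in heart and 2 higher in liver, with a median of 0.08. Those called higher in heart were Rps15a (1.39), Rpl28 (1.32) and Rps29 (1.16), and without liver 2 the differences of Rpl28 and Rps29 were 0.74 and 0.58, under the size threshold. Ribosomal protein genes have many near-identical copies in the genome, and how their reads were assigned was not tested. Which direction has more calls depended on the scaling and on 1 library: 2 heart and 6 liver calls by total reads, 1 and 4 without liver 2, and 8 heart calls without liver 1. Of 33 proteasome subunits 24 lay within 2-fold and 4 were called, all higher in liver, including Psmb9 of the immunoproteasome (-1.77), a count that was 7 by total reads, 2 without liver 2 or without mitochondrial reads, and 1 with upper quartile scaling or quantile normalisation. By rule the 10 genes with the highest mean among those within 2-fold were Eef2, Hspa8, Ndrg2, Hsp90ab1, Fth1, Acaa2, Hspa9, Ldha, Hdlbp and Eif4g1. The translation factor Eef2 was at 1290, 1276 and 1457 in heart and 1248 and 1807 in liver (-0.16, 95% interval -0.63 to 0.30), so the organs overlapped.

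Genes often used as references were not all level. Of 11 tested, 3 (27.3%) were called higher in liver and none in heart, against 22.4% and 26.0% of all genes tested. The liver share is thus near that of all genes. Those called were Eef1a1 at 5115 and 5271 in liver against 687, 764 and 608 in heart (-2.92, SE 0.15), Actb (-1.38) and Ppia (-1.22). The count in liver was 6 by total reads and 5 without liver 2, and Ppia missed the size threshold without liver 1 (-0.90). Among 19 tested cytosolic chaperones 9 (47.4%) were called higher in heart and 1 (5.26%) higher in liver, against 26.0% and 22.4% of all genes tested. Another 9 were not called, of which 5 had intervals within 2-fold, a share of the list near the 29.8% of all tested genes. Those higher in heart were led by the small heat shock protein Hspb7 (1315, 1530 and 1595 against 1.44 and 1.001, difference 9.76), its relatives Cryab (8.16) and Hspb2 (6.07), and the myosin chaperone Unc45b (6.20). Dnaja1 was called higher in liver (-2.41). The livers were unequal for this list, with summed levels of 2567 and 4868 against 6815 to 8208 in the hearts, and without liver 1 there were 3 liver calls. Of 17 clock genes 3 (17.6%) were called higher in heart and 4 (23.5%) higher in liver, shares near those of all genes tested, and the balance turned with scaling without mitochondrial reads or by upper quartile and without liver 2. Npas2 (2.80) and Bhlhe41 (2.76) were higher in heart, and Per2 (-2.34) and Bhlhe40 (-2.04) in liver, with Per2 at an adjusted p of 0.0518 without liver 2.

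Antioxidant enzymes were divided, with 11 of 20 (55%) called higher in liver and 6 (30%) higher in heart. The heart share is near the 26.0% of all genes tested, and the liver share lies above the 22.4% of all genes. Glutathione synthesis was on the liver side, with Gclc, its rate-limiting subunit, at 462 and 630 in liver against 9.69, 16.8 and 10.3 in heart (-5.45) and Gclm at -3.42, and so was catalase (Cat, -3.74). Gpx3, an extracellular glutathione peroxidase, was called higher in heart (4.87).

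Cell types other than cardiomyocytes and hepatocytes also differed. General endothelial markers were called higher in heart in 7 of 9 cases, but in 5 by total reads and in 8 with upper quartile scaling. Their summed level was 772 to 990 in heart and 283 and 306 in liver, and Pecam1 and Cdh5 differed by 2.40 and 2.23. Markers of the liver's own sinusoidal endothelium were called higher in liver in 6 of 9 cases: Dnase1l3, Stab2, Clec4g and Oit3 were at 0.0444 to 1.01 in the hearts and at 24.2 to 98.9 in the livers. Smooth muscle and pericyte markers were called higher in heart in 7 of 8 cases, with summed levels of 1362 to 1766 against 125 and 133. Acta2 of smooth muscle was at 96.4, 267 and 89.6 in the hearts.

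Fibroblast markers were called higher in heart in 7 of 8 cases, but in 4 by total reads, with Gsn at 4.20, Lum at 1.80 and Pdgfra at 1.64. Stellate cell markers were called higher in liver in 7 of 9 cases, including Reln (-4.997), Lrat (-3.41) and Bmp10 (-3.405). Rgs5, shared with pericytes, was higher in heart (3.80). Their summed level was higher in heart, at 660 to 886 against 363 and 369 in the livers, and most of the heart sum was Rgs5. Only 5 of the 11 listed macrophage and Kupffer cell markers were measured. Of these 5, all tested, 1 was called higher in liver, a share near that of all genes, and 3 were by total reads. Their summed level was 227 and 283 in the livers against 89.7 to 109 in the hearts, with a median difference of -0.83. The marker called was Cd5l at 68.1 and 89.3 in liver against 0, 0.222 and 0.137 in heart (-7.00), and Csf1r missed the size threshold (-0.94). The leukocyte marker Ptprc was within 2-fold (0.21). Of 24 tested extracellular matrix genes 18 (75%) were called higher in heart and 4 (16.7%) higher in liver. Over all genes tested the shares were 26.0% and 22.4%, so the liver share lies below that of all genes. Lama2 of the muscle basement membrane (4.19) was on the heart side. The genes called higher in liver included the collagen Col18a1 (-6.86), and Vtn (-7.19) and Fn1 (-5.96), which also circulate in plasma. The summed level of this list was higher in liver, unlike most calls, at 7634 and 9151 against 3144 to 4028 in the hearts.

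The heart and liver difference of the mouse was then set against that of the other 3 rodents, in 1 fit over all 28 libraries with 8151 genes tested. Gene length and mapping of a species are the same in both of its organs, so the comparison is of differences and not of levels. Levels given below for a species show its own heart and liver, and do not rank the species. The mouse difference departed from the mean of the others by at least 2-fold towards heart for 1438 genes (17.6%) and towards liver for 1271 (15.6%), and 575 and 490 of these were called against each species separately. By total reads the split was 756 and 2448. The guinea pig is close to the mice in age, the mole-rats are older, and species, age and husbandry cannot be told apart.

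Among the 6 largest departures towards heart, Pdk4 was at a mean of 1237 in mouse heart and 11.2 in mouse liver, whereas the naked mole-rat had 77.9 and 506, the Damaraland mole-rat 37.4 and 237, and the guinea pig 130 and 123. The mouse difference of 7.06 thus met differences of -2.53, -2.70 and -0.57, a departure of 8.995 (SE 0.74, adjusted p = 1.29e-10). Igf2, a growth factor of fetal life, had 46.7 in mouse heart and 1.42 in mouse liver, against 96.1 and 2219 in naked mole-rat, 52.0 and 335.5 in Damaraland mole-rat, and 687 in the heart and 1196 in the liver of guinea pig (departure 7.46, SE 0.42). In mouse the heart was above the liver, and in the other 3 the liver was above the heart. Ogdhl, a relative of the oxoglutarate dehydrogenase subunit, was a heart gene in mouse (8.25) and in both mole-rats (2.78 and 4.80) and a liver gene in guinea pig (-7.26). Atp8a2, a lipid flippase, Auts2 and the mitochondrial folate enzyme Aldh1l2 were higher in heart in mouse and higher in liver in the other 3.

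Towards liver, Apoa1 had a mouse difference of -11.53 against -6.37 and -4.34 in the mole-rats and 4.66 in guinea pig, where heart had 220 and liver 9.49 (departure -9.51, SE 0.44). Gstp1, a glutathione transferase, was at 3858 in mouse liver and 111 in mouse heart, and at 13.14 to 20.1 in the livers and 63.0 to 170 in the hearts of the others (departure -8.03, SE 0.32, adjusted p = 9.55e-17). Spp1, which codes for osteopontin, was higher in liver in mouse and higher in heart in the others. The carbonic anhydrase Car3 was a liver gene in mouse (-10.80) and in naked mole-rat (-7.01) and higher in heart in Damaraland mole-rat (1.88).

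The muscle genes Myh7 and Neb closed the list. Myh7 was at 74.8 in mouse heart and at 40060, 19280 and 25640 in the hearts of naked mole-rat, Damaraland mole-rat and guinea pig, with livers of 26.1 to 70.2 in all 4 species (departure -6.97, SE 0.66). Neb, the thin filament ruler of striated muscle, was at 13.7 in mouse heart and 40.0 in mouse liver. In the others it was at 63.4 to 272 in heart and 0.954 to 14.0 in liver (departure -6.73, SE 0.62). Within the mice Neb was called higher in liver (-1.56, SE 0.37, adjusted p = 0.00856), and without liver 2 the adjusted p was 0.0631. How the orthologue of each gene was assigned in each species was not tested.

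**Figure D5:**
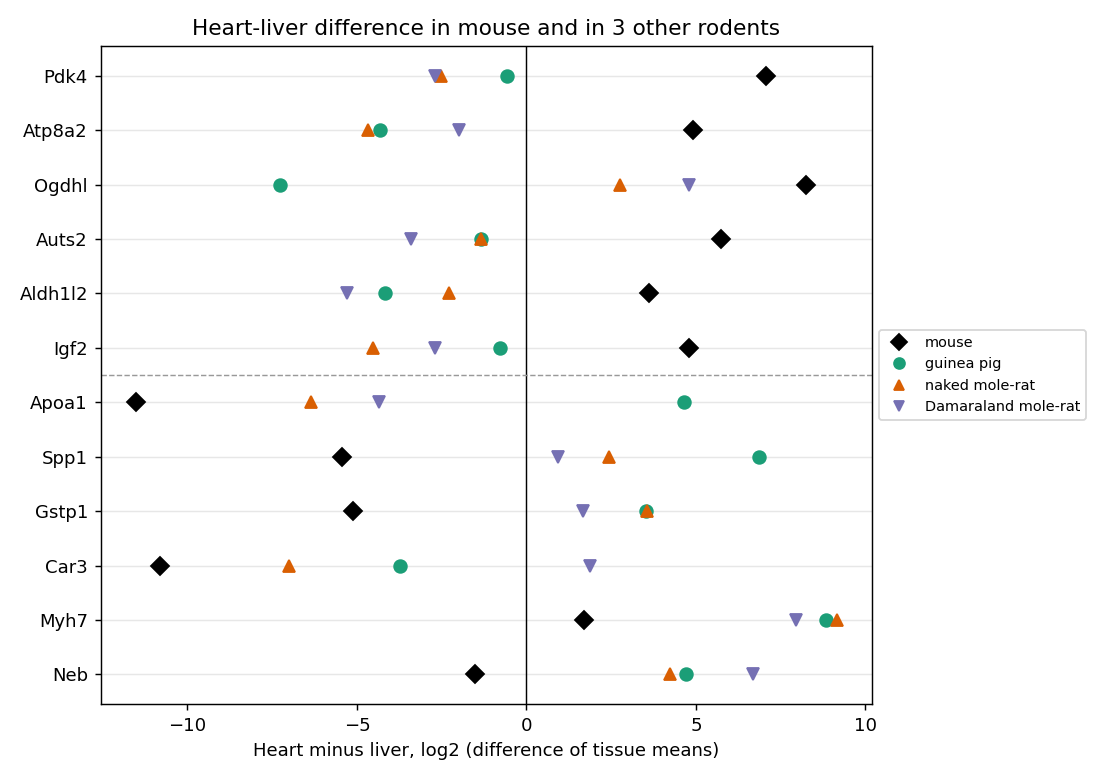
Heart minus liver difference (log2) in each of 4 species for the 6 largest departures of mouse towards heart (above the dashed line) and towards liver (below it). The mouse (black diamonds) lies to the right of the 3 other species for Pdk4 to Igf2 and to their left for Apoa1 to Neb, and the other species differ among themselves for Ogdhl, Apoa1 and Car3.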

How the data were processed

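Total RNA from frozen tissue was depleted of ribosomal RNA and sequenced, per the labels' protocols. The authors deposited variance-stabilised log2 values, 1 table per tissue. The submitters' processing notes name cutadapt, Salmon 013.1, DESeq2 and the build GRCm38, without roles. The tables' 26 other columns were not used. The separate transforms were inverted, u = sinh²((value − table minimum) × ln 2 / 2), and gave whole reads for every value (tolerance 0.01). Reads were scaled by median-ratio size factors (genes of at least 10 reads in each library) and tested as log2(scaled RPM + 0.5) with limma 3.58.1 in R 4.3.3 (variance trend), with Benjamini-Hochberg adjustment over all genes tested. Fold changes are on that scale and understate those of low genes. For departures from the other species, the higher tissue of each species needed at least 5 scaled RPM. The code was tested on simulated reads.

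Named genes were the 12 largest differences per direction (at least 50 scaled RPM in the higher tissue), the 4 largest per list with the strongest opposite member, all 34 pairs, the 10 most abundant within 2-fold, the 6 largest departures per direction, the 10 genes with most reads and the 5 most variable per tissue. The 60 lists, the pairs and these rules were chosen with earlier results of these data known. List members named because they were not called, and the genes C1qb and C1qc, were picked after their values were seen. Alternatives covered scaling, pseudocount, filters, variance model, depth, replicate block and left-out libraries. Replicate numbers do not pair the samples: replicate 1 is a different animal in each tissue. Promoter sequences were not analysed here, and some genes that these rules select are not reported here.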

Additional observations from a re-analysis of the deposited data

Results flagged for a closer look

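The heart and liver difference differed between mouse and the other 3 rodents, by the test of that difference in the fit over all libraries, for these 12 named genes, given as the mouse difference minus the mean of the others (log2). Towards heart the values were 8.995 for Pdk4, 8.584 for Atp8a2, 8.149 for Ogdhl, 7.766 for Auts2, 7.539 for Aldh1l2 and 7.455 for Igf2. Towards liver they were -9.513 for Apoa1, -8.854 for Spp1, -8.027 for Gstp1, -7.851 for Car3, -6.967 for Myh7 and -6.732 for Neb. The least certain was Car3, whose highest adjusted p against a single species was 0.0014. No group of mouse libraries holds 4 samples or more, so no library was tested as an outlier.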

How the results depend on the processing

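Other scalings, filters, pseudocounts, variance models, pairings and sample choices were run. The counts of called genes stayed within 1.5 times of those reported, with the following exceptions. Requiring a mean of at least 10 RPM gave 1823 genes higher in heart, and a pseudocount of 2 gave 311 heart-dominant genes. Departures were compared as a total over both directions, which hides their split. By total reads 756 departures were towards heart and 2448 towards liver, against 1438 and 1271 as reported. Leaving out 1 mouse library at a time gave 2726 to 2904 genes higher in heart, 2356 to 2551 higher in liver, 494 to 506 heart-dominant, 524 to 534 liver-dominant, 2583 to 3262 within 2-fold and 2440 to 2692 departures. The replicate block by number gave 2873 genes higher in heart and 2409 in liver. The same-numbered heart and liver libraries had correlations of their deviations of 0.035 and 0.063, and only number 2 is the same animal in both tissues. An animal term could not be fitted on the 5 mouse libraries, and in the fit over all 28 it gave 1442 and 1271 departures. Of 261 named genes that were called, 260 kept their call by total reads, 254 after quantile normalisation and 251 to 261 without 1 library, and none reversed. List counts were recomputed under 4 scalings and without each library, which was chosen after seeing the data. The shallower livers limit what can be said of genes low in liver: 3 reads over both equal 0.0924 RPM, against 0.0425 over the hearts.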

Other observations

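Some genes were read in 1 organ alone. With at least 10 reads in every library of one organ and no read in the other, 122 genes were found in heart and 21 in liver, with means of up to 115 RPM. These genes were chosen by their values. Over all genes measured, 970, 1095 and 1685 had no read in hearts 1 to 3, and 2021 and 1973 in livers 1 and 2. The rule uses unscaled reads and the livers are the shallower libraries, so the counts cannot be compared between organs. The heart genes include Sgca of the dystrophin complex, with 1921, 1805 and 2096 reads (at least 899-fold higher, against 3 reads over the livers), Tecrl (at least 507-fold), the inward rectifier Kcnj12 (at least 368-fold) and the pacemaker channel Hcn4 (at least 310-fold). The liver genes include the anion transporter Slc22a7 (at least 2710-fold) and Smlr1 (at least 522-fold).

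A few abundant genes varied widely between libraries of the same organ. Each organ of a mouse gave a single library, so differences between mice and between libraries cannot be told apart. Lars2, a mitochondrial leucyl-tRNA synthetase, was at 2520, 726 and 253 in the hearts and 2838 and 261.5 in the livers, so the organs overlapped over the whole range (difference -0.16, SE 1.20). Heart 2 and liver 2, from the same mouse, were at 726 and 261.5. Zfp236 was at 28.7, 29.9 and 148 in the hearts. Ptgds, a prostaglandin D synthase, was at 49.4, 71.1 and 218 in heart and under 1 in liver. Between the livers, the deubiquitinase Usp2 was at 14.9 and 86.1, and the mitochondrial carrier Slc25a30 at 345.5 and 61.7.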
